A study of Mus musculus with 15 samples.

Results

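The laminin chains examined here are Lama2, Lama3, Lama4, Lama5, Lamb1, Lamb2, Lamb3, Lamc1 and Lamc3, taken by gene symbol from the deposited count tables. They are 9 of 40174 symbols, and all 9 are among the 17588 genes kept by a filter on low counts. The libraries are total RNA of left ventricle from C57BL/6 mice at 2 months of age. The mutant mice carried a point mutation in Rbm20, the gene of a muscle RNA-binding protein that controls splicing in the heart, titin being its best known target, and the series asks how 2 such mutations act in cardiac remodeling. A-line HOM mice are labelled Rbm20 S637A -/- and A-line HET mice S637A +/-. G-line HOM mice are labelled Rbm20 S639G -/- and G-line HET mice S639G +/-, and WT mice carried neither mutation. In the labels HOM goes with -/- although the alleles are named as amino acid substitutions, so HOM is read here as homozygous for the substitution.

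Laminins are secreted trimers of an alpha, a beta and a gamma chain that build the sheet-like core of basement membranes. In the heart a basement membrane wraps each cardiomyocyte, where the laminin containing the Lama2 chain links the matrix to dystroglycan and to integrins, and loss of the Lama2 chain causes a muscular dystrophy in humans and mice. Lama4 and Lama5 are best known from the basement membranes of blood vessels, Lamc1 is the gamma chain of most laminins, and Lama3 and Lamb3 are best known from epithelia such as skin.

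The labels name 3 replicates in each of the 5 groups, but replicates 2 and 3 of A-line HOM carry, in all 40174 symbols, the counts of WT replicates 2 and 3. These were used once, as WT, which leaves 13 distinct libraries: 1 A-line HOM, 3 A-line HET, 3 G-line HOM, 3 G-line HET and 3 WT. Nothing in the labels settles which of the names is the true one. Read as A-line HOM, they leave WT replicate 1 as the only WT library. Counts per library totalled 17507813 in A-line HOM, 12959087 to 17448328 in A-line HET, 20324529 to 29436407 in G-line HOM, 23714906 to 28121438 in G-line HET, against 25279202 to 26549906 in WT. Mitochondrial ribosomal RNA took 15.1% of counts in A-line HOM, 13.2 to 17.1% in A-line HET, 10.9 to 13.5% in G-line HOM, 15.4 to 16.7% in G-line HET, against 20.2 to 23.4% in WT. Whether replicates are different mice is not stated in the labels, so each p-value reflects only how these libraries vary, which may be technical. In CPM (counts scaled to library size), 7 cardiomyocyte markers summed to 45270 in A-line HOM, 40750 to 50720 in A-line HET, 39780 to 43120 in G-line HOM, 47570 to 53080 in G-line HET, against 49930 to 55100 in WT. In G-line HOM every library lay below every WT library in this sum. There 4 of the 7 genes were called lower (median log2 fold change -0.38), beside 13.3% of all genes. Myh6 was the largest part of the sum, with a mean of 16850 CPM in G-line HOM against 24570 in WT. Tnnt2 went the other way, at 5021 against 4020 CPM. Tnni3, Actc1, Pln, Ryr2 and Myl2 had lower means than in WT. The part of this shift in the laminin values was not tested. Atrial muscle transcripts stood out in WT replicate 2, A-line HET replicate 3 and G-line HOM replicate 1, with Myl7 at 524, 240 and 45.8 CPM.

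Promoters are printed for Lama5, Lama2 and Lamb3, the chains called in G-line HOM against WT whose start is in the RefSeq promoter table, to show how unlike one another their start regions are. Each window runs from 250 bases before to 50 bases after an annotated start in GRCm38.p6, written 5′ to 3′ on the gene's strand. Capitals mark matches on either strand to short motifs. The motif searched as the GC box was GGGCGG, and that of AP-1 was TGANTCA. The TEAD motif was searched as GGAATG and the SMAD motif as CAGACA. The TATA box was searched as TATAAA. Lama5 lies at chr2:180225810-180226109 on the minus strand, Lama2 at chr10:27616893-27617192 on the minus strand, and Lamb3 has starts at chr1:193301744-193302043 and chr1:193301993-193302292 on the plus strand, whose windows overlap.
Lama5: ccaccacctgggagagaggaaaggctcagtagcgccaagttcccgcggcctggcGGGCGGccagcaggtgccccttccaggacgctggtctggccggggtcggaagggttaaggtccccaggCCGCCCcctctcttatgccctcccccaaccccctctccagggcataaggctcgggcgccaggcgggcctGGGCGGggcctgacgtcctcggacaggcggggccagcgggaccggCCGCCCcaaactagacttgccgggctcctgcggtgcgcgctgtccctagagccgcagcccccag
Lama2: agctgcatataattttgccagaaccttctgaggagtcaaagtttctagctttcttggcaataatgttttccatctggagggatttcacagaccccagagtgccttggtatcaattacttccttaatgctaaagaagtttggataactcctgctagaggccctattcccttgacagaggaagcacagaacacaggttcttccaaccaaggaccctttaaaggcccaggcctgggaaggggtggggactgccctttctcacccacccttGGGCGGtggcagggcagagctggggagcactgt
Lamb3, first start: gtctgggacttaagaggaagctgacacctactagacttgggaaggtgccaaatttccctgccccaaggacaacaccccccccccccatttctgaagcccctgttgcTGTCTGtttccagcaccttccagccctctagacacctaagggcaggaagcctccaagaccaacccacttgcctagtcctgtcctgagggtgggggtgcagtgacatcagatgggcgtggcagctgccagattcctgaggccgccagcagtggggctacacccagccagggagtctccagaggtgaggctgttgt
Lamb3, second start: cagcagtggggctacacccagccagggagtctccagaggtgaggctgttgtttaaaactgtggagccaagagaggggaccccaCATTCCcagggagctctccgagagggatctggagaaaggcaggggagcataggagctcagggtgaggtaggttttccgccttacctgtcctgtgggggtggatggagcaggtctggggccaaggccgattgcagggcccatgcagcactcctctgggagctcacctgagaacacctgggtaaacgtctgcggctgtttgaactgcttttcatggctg

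The Lama5 window was 72.7% G and C, at percentile 93.9 of the 32851 promoter windows, and held 4 GC boxes. The Lama2 window was 50.3% G and C, below the median window at 52.7%, and held 1 GC box. Each Lamb3 window was 59.3% G and C, and the capitals mark 1 SMAD match at the first start and 1 TEAD match at the second. The same letters are common: 35.7% of windows held a GC box, 21% the SMAD letters, 14.7% the TEAD letters, 13.6% the TATA letters and 7.81% the AP-1 letters. These matches describe letters in the reference genome and are not sites of binding.

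The chains were ranked by level per length, as the median over the 13 libraries of CPM per kilobase of exon. Lamb2 was highest at 62.2 CPM per kb, followed by Lamc1 at 44.1, Lama2 at 35.8, Lamb1 at 18.6, Lama4 at 14.5 and Lama5 at 10.1. Lamc3 at 1.13, Lama3 at 0.556 and Lamb3 at 0.507 CPM per kb lay far below these 6. Of neighbours in this order, Lamb2 (44.0 to 82.5 CPM per kb over the libraries) overlapped Lamc1 (34.8 to 52.3), Lamc1 overlapped Lama2 (24.5 to 40.7), Lamb1 (16.1 to 21.3) overlapped Lama4 (12.9 to 16.3), and the 3 lowest chains overlapped one another. Lama2 with Lamb1, Lama4 with Lama5 (3.63 to 11.7) and Lama5 with Lamc3 (0.176 to 2.63) did not overlap. These lengths count every annotated exon. With the longest transcript instead, Lama2 stood above Lamc1.

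Lama2 transcripts were higher than in WT in all 4 mutant groups, by 0.51 to 0.59 on the log2 scale. In CPM, A-line HOM had 584, A-line HET replicates had 602, 608 and 610, G-line HOM replicates had 570, 584 and 650, G-line HET replicates had 604, 575 and 664, and WT replicates had 401, 417 and 410. Every mutant library lay above every WT library. Log2 fold changes against WT were 0.51 ± 0.12 in A-line HOM (SE, adjusted p = 0.0254), 0.57 ± 0.09 in A-line HET (adjusted p = 0.00141), 0.55 ± 0.09 in G-line HOM (adjusted p = 0.000346) and 0.59 ± 0.09 in G-line HET (adjusted p = 0.00105). All 4 comparisons share the WT libraries. With the shared libraries read as A-line HOM, all 4 calls ended, at adjusted p = 0.986, 0.343, 0.0799 and 0.219 in the same order. The A-line HOM call also ended without WT replicate 1 (adjusted p = 0.0714) or WT replicate 3 (adjusted p = 0.0754). The summed level of 7 fibroblast markers was 2651 CPM in A-line HOM, 2248 to 3933 in A-line HET, 2889 to 3486 in G-line HOM, 2112 to 3558 in G-line HET, against 1396 to 2578 in WT, and its part in the Lama2 difference was not tested. In bulk tissue, fewer cells of a type and less RNA per cell cannot be told apart.

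Lama5 fell in G-line HOM hearts, and the other 3 mutant groups did not pass the test against WT. It had 115 CPM in A-line HOM, 114, 80.6 and 106 for A-line HET, 54.2, 41.4 and 55.7 in G-line HOM, 124, 117 and 125 in G-line HET, against 134, 121 and 118 in WT. The 3 G-line HOM libraries lay below all 10 others. The counts behind these values were 878 to 1732 for the G-line HOM libraries and 1383 to 3414 for the others. Group means were 115 CPM in A-line HOM, 100 ± 17.4 in A-line HET, 50.4 ± 7.88 in G-line HOM, 122 ± 4.26 in G-line HET, against 124 ± 8.36 in WT (SD, n = 3 except A-line HOM).

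In G-line HOM against WT, Lama5 had a log2 fold change of -1.30 ± 0.13 (adjusted p = 1.89e-05), 2.46-fold lower. Against G-line HET it had -1.27 ± 0.13 (adjusted p = 0.000744), 2.42-fold lower. Both calls held in all 25 alternative analyses, with adjusted p up to 0.0176 against WT and up to 0.00727 against G-line HET. These alternatives reuse the same libraries. Lama5 was chosen with its difference by line and gene dose already known, so both calls add no independent support. The G-line HET value against WT was -0.02 (adjusted p = 0.938), and their libraries overlapped. A-line HET had -0.31 ± 0.13 (adjusted p = 0.173) and A-line HOM -0.11 (adjusted p = 0.810). In the order of group means, from G-line HOM up through A-line HET, A-line HOM, G-line HET and WT, the pairs A-line HET with A-line HOM and G-line HET with WT had adjusted p = 0.999 and 0.938. Endothelial cells are known to make Lama5, and 8 of their markers summed to 744 CPM in A-line HOM, 734 to 905 in A-line HET, 762 to 1153 in G-line HOM, 659 to 806 in G-line HET, against 913 to 948 in WT. Among these, Vwf had 355, 187 and 89.4 CPM in G-line HOM, against 48.8, 119 and 75.7 CPM in WT. Without Vwf the other 7 summed to 660 CPM in A-line HOM, 607 to 798 in A-line HET, 673 to 798 in G-line HOM, 584 to 734 in G-line HET, against 794 to 899 in WT. In G-line HOM against WT 1 of the 8 (Tie1) was called lower and 0 higher, beside 13.3% of all genes lower and 13.1% higher. The median log2 fold change of the 8 was -0.17, and the part of endothelial cells in the Lama5 difference was not tested.

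**Figure D1:**
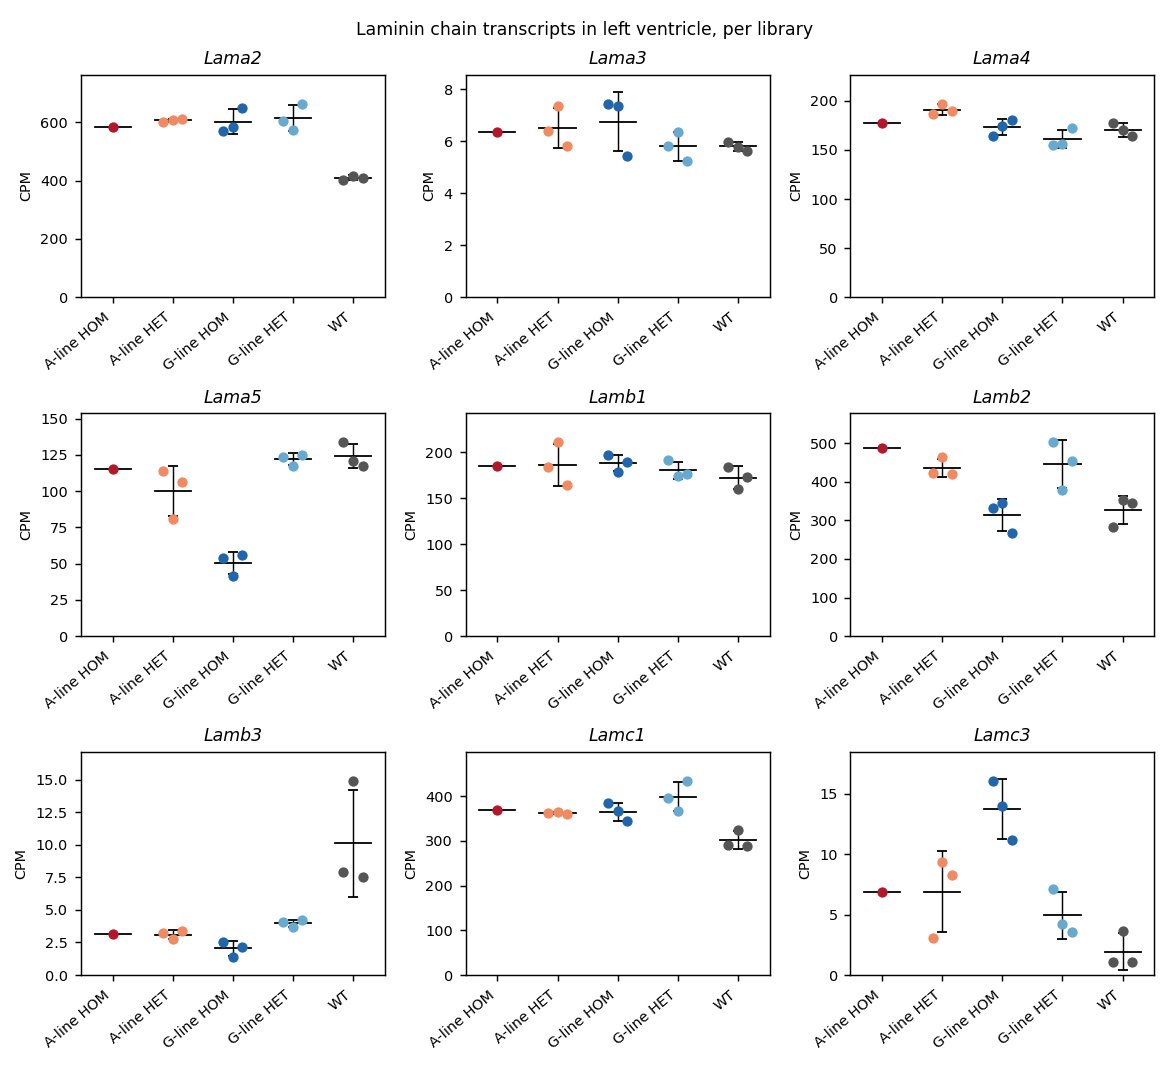
TMM-scaled CPM of the 9 laminin chains, each on its own linear axis from 0, with 1 point per library, a line at the group mean and bars of 1 SD (n = 3, no bar for the 1 A-line HOM library). Lama2 was above WT in every mutant library, Lama5 was low in the 3 G-line HOM libraries, at 41.4 to 55.7 CPM, and Lamb3 was highest in the 3 WT libraries.

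The lines were also set against each other for Lama5, and the difference between the lines in HOM against HET was not a planned comparison. Lama5 was already known to differ by line and gene dose when the chains were chosen, so its calls here add no independent support. A-line HOM had 115 CPM against 54.2, 41.4 and 55.7 CPM in G-line HOM, a log2 fold change of 1.19 ± 0.17 (adjusted p = 0.0243). It was 1 of 9 chains called in this comparison, in which 0.0398% of all genes passed either way. The difference between the lines in HOM against HET, A-line minus G-line, was 1.47 ± 0.22 (adjusted p = 0.0462), again 1 of 9 chains, beside 0.0171% of all genes. Both rest on a single A-line HOM library: the first call was lost in 8 of 24 alternative analyses, among them those without G-line HOM replicate 1 or 2, G-line HET replicate 2 or WT replicate 3 (adjusted p = 0.0559 to 0.127), and the second in 18 of 24, among them those without any 1 of 10 libraries (adjusted p = 0.0644 to 0.129), while their values stayed between 1.06 and 1.26 and between 1.34 and 1.57.

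Lama4 and Lama3 were not called in any of the 8 group comparisons. Lama4, a chain of vessel walls, had 177 CPM in A-line HOM, 187 to 197 in A-line HET, 164 to 180 in G-line HOM, 155 to 172 in G-line HET, against 164 to 178 in WT. The G-line HOM value against WT was 0.02 on the log2 scale (adjusted p = 0.869). Lama3, an epithelial chain, had 5.24 to 7.44 CPM over all libraries, at 81 to 238 counts, with 0.22 in G-line HOM against WT (adjusted p = 0.351). Epithelial markers were nearly absent, their 5 genes summing to at most 4.69 CPM in any library.

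Set per length, the alpha chains had a different make-up in mutant hearts. Lama2 took 58.5% of the summed alpha chain level (CPM per kb) in A-line HOM, 59.6 ± 1.09% in A-line HET, 65.5 ± 0.764% in G-line HOM, 60.4 ± 0.802% in G-line HET, against 49.5 ± 1.66% in WT. Lama5 took 16.5% in A-line HOM, 14.1 ± 2.27% in A-line HET, 7.88 ± 1.11% in G-line HOM, 17.2 ± 0.617% in G-line HET, against 21.5 ± 1.08% in WT. Lama4 took 24.0% in A-line HOM, 25.4 ± 1.09% in A-line HET, 25.5 ± 0.873% in G-line HOM, 21.5 ± 0.451% in G-line HET, against 27.9 ± 0.586% in WT. The Lama2 share was highest, and the Lama5 share lowest, in G-line HOM, as a description with no test. Shares depend on the exon length used: with the longest transcript, Lama5 took 4.60% in G-line HOM and 10.5% in G-line HET.

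**Figure D2:**
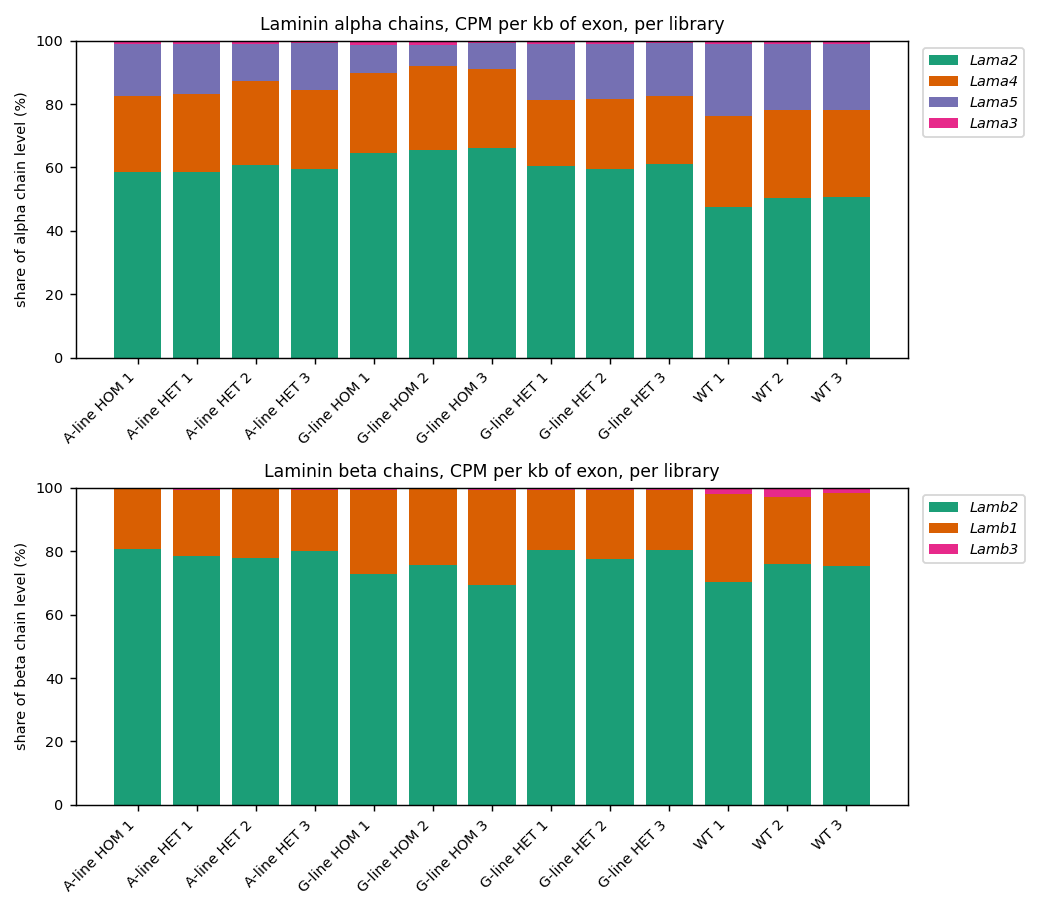
Stacked bars of the share (%) of each alpha chain (top) and each beta chain (bottom) in the summed CPM per kb of exon of its family, 1 bar per distinct library. Lama5 took 7.88% of the alpha chain level in G-line HOM libraries on average and 21.5% in WT libraries, and Lamb3 was visible in the beta chains of the WT libraries.

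Among the beta chains, Lamb2 differed by group and Lamb1 did not pass the test in any comparison. Lamb2, known from the neuromuscular synapse, vessel walls and the kidney filter, had 486 CPM in A-line HOM, 422, 463 and 421 for A-line HET, 332, 345 and 268 in G-line HOM, 502, 379 and 455 in G-line HET, against 284, 352 and 344 in WT. The HET libraries and the A-line HOM library lay above all WT libraries, and the G-line HOM and WT libraries overlapped. G-line HET was higher than WT by 0.45 ± 0.13 (adjusted p = 0.0441), a call lost in 12 of the 25 alternative analyses, among them those without G-line HET replicate 1 or 3, A-line HET replicate 3, G-line HOM replicate 2 or any WT library (adjusted p = 0.0504 to 0.207). G-line HOM had -0.50 ± 0.13 against G-line HET (adjusted p = 0.0180), a call lost in 3, among them those without G-line HET replicate 1 (adjusted p = 0.0809) or 3 (adjusted p = 0.0569). Values against WT that missed the threshold were 0.57 in A-line HOM (adjusted p = 0.0731), 0.41 in A-line HET (adjusted p = 0.0581) and -0.05 in G-line HOM (adjusted p = 0.795), and without G-line HOM replicate 3 the first 2 passed, at adjusted p = 0.0450 and 0.0332. Lamb1, a widely expressed beta chain, had 160 to 211 CPM over all libraries, with 0.13 in G-line HOM against WT (adjusted p = 0.385).

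Lamb3, the beta chain of the epithelial anchoring laminin, was scarce and lower than in WT in every mutant group. It had 3.14 CPM in A-line HOM, 3.23, 2.74 and 3.35 for A-line HET, 2.57, 1.41 and 2.16 in G-line HOM, 4.05, 3.67 and 4.21 in G-line HET, against 7.90, 14.9 and 7.55 in WT. No mutant library reached the lowest WT library, and WT replicate 2 stood well above the other WT libraries. These values rest on 30 to 115 counts per mutant library and 181 to 393 per WT library. Log2 fold changes against WT were -1.69 ± 0.42 in A-line HOM (adjusted p = 0.0340), -1.70 ± 0.27 in A-line HET (adjusted p = 0.00198), -2.29 ± 0.28 in G-line HOM (adjusted p = 6.18e-05) and -1.35 ± 0.26 in G-line HET (adjusted p = 0.00632). G-line HOM was also lower than G-line HET, at -0.94 ± 0.28 (adjusted p = 0.0356), a call lost in 8 of 25 alternative analyses, among them those without G-line HOM replicate 2 or 3 or any G-line HET library (adjusted p = 0.0551 to 0.133). With the shared libraries read as A-line HOM the calls against WT ended, at adjusted p = 0.0553 in G-line HOM and 0.382 to 0.443 in the HET groups, and the A-line HOM value turned to 0.12. The A-line HOM call also ended without G-line HET replicate 3 (adjusted p = 0.0507).

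The Lamb3 locus overlaps 6 annotated genes, among them 4930570N18Rik and Gm37691 on the same strand. The protein-coding genes Hsd11b1 and G0s2 lie on the opposite strand, with 0 exon bases shared with Lamb3 in the annotation used. Shared exon bases of the other overlapping genes were not measured. Whether reads were counted by strand is not given in the sources used here. In G-line HOM against WT, Hsd11b1 had a log2 fold change of -0.43 (adjusted p = 0.0488) and G0s2 of -0.61 (adjusted p = 0.0418). Neither was called against WT in A-line HET or G-line HET. Hsd11b1 averaged 13.4 CPM in A-line HOM, 12.7 in A-line HET, 13.5 in G-line HOM, 16.2 in G-line HET and 18.3 in WT. G0s2 averaged 19.65, 18.3, 12.7, 25.0 and 19.3 CPM in the same order. Markers of other tissues were high in WT replicate 2: adipocyte markers summed to 86.8 CPM there and to at most 24.1 in any other library, and atrial muscle markers to 2395 CPM against 77.6 and 101 in the other WT libraries. Over the mutant libraries the atrial sum ran from 949 to 8003 CPM. It includes Nppa, which averaged 2092 CPM in G-line HET to 6457 CPM in G-line HOM. Mesothelial markers summed to 6.40 CPM in WT replicate 2, to 16.4 in G-line HOM replicate 1, to 13.8 in A-line HET replicate 3 and to at most 3.09 in the other libraries. The part of these cells in the Lamb3 level of WT replicate 2 was not tested.

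Of the gamma chains, Lamc1 was modestly higher than WT by value in every mutant group, and passed the test in the G-line groups alone. It had 368 CPM in A-line HOM, 361, 365 and 360 for A-line HET, 384, 366 and 343 in G-line HOM, 395, 368 and 433 in G-line HET, against 290, 324 and 288 in WT. Every mutant library lay above every WT library. The log2 fold change was 0.28 ± 0.09 in G-line HOM (adjusted p = 0.0315) and 0.41 ± 0.09 in G-line HET (adjusted p = 0.0127), and 0.29 in A-line HOM (adjusted p = 0.214) and 0.27 in A-line HET (adjusted p = 0.0828). The G-line HOM call was lost in 12 of 25 alternative analyses, among them those without G-line HOM replicate 1 or 2 or WT replicate 1 or 3 (adjusted p = 0.0824 to 0.124). The G-line HET call was lost in 5, among them those without G-line HET replicate 3 or WT replicate 1 or 3 (adjusted p = 0.0659 to 0.0720).

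Lamc3, a gamma chain known from the retina and other nervous tissue, was scarce in all groups and rose in G-line HOM. It had 6.86 CPM in A-line HOM, 3.07, 9.33 and 8.30 for A-line HET, 16.0, 14.0 and 11.1 in G-line HOM, 7.15, 4.19 and 3.52 in G-line HET, against 1.07, 3.67 and 1.08 in WT. The G-line HOM libraries lay above all 10 others. The log2 fold change in G-line HOM against WT was 2.80 ± 0.53 (adjusted p = 0.00329), 6.97-fold higher, from 237 to 512 counts per G-line HOM library and 25 to 97 per WT library. With the shared libraries read as A-line HOM it was 3.67 and the call ended (adjusted p = 0.0623), and without WT replicate 2 it was 3.66 (adjusted p = 0.000458). The other groups missed the threshold, with 1.80 in A-line HOM (adjusted p = 0.197), 1.83 in A-line HET (adjusted p = 0.0695) and 1.33 in G-line HET (adjusted p = 0.172). Without WT replicate 2 these were 2.66, 2.69 and 2.19, with adjusted p = 0.0325, 0.00966 and 0.0228, and without A-line HET replicate 1 the A-line HET value passed at adjusted p = 0.0197. G-line HOM against G-line HET gave 1.47 (adjusted p = 0.0718), and passed without WT replicate 2 (adjusted p = 0.0202) or A-line HET replicate 1 (adjusted p = 0.0374).

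Counted over the 9 chains, 3 were higher and 2 lower in G-line HOM than in WT, beside 26.4% of all genes called in either direction, 13.1% higher and 13.3% lower. Lama5, among the lower chains here, was chosen with its difference already known. In A-line HOM 1 was higher and 1 lower, beside 4.68% of genes, 2.82% higher and 1.86% lower. In A-line HET 1 was higher and 1 lower, beside 7.96% of genes, 3.99% higher and 3.97% lower. In G-line HET 3 were higher and 1 lower, beside 7.52% of genes, 3.97% higher and 3.54% lower. The median log2 fold change of the chains against WT was 0.13 for A-line HOM, 0.17 for A-line HET, 0.13 for G-line HOM and 0.06 for G-line HET, and that of all genes tested was -0.01, 0.02, 0.01 and -0.01 in the same order.

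Between genotypes of the same line, 3 chains (Lama5, Lamb2 and Lamb3) were lower in G-line HOM than in G-line HET, beside 8.42% of genes lower, 6.22% higher and 14.6% called either way. Of these chains, Lama5 was chosen with its difference by gene dose already known. In A-line HOM against A-line HET no chain was called, beside 0.0227% of genes, all higher, none had an unadjusted p under 0.05, and DESeq2 called 0. In A-line HET against G-line HET no chain was called either, beside 0.0284% of genes, 0.0114% higher and 0.0171% lower. There 2 had an unadjusted p under 0.05, Lama4 at 0.25 on the log2 scale (adjusted p = 0.216) and Lama5 at -0.28 (adjusted p = 0.367), and DESeq2 called 0.

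**Figure D3:**
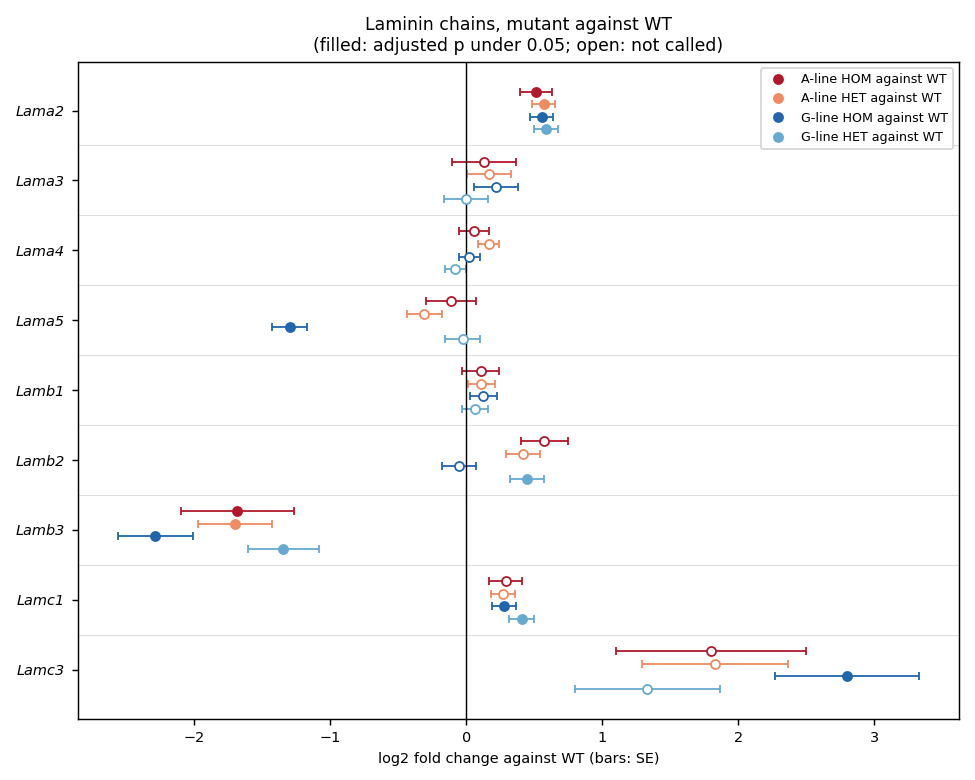
Log2 fold change against WT (horizontal axis, bars of 1 SE) of the 9 laminin chains in A-line HOM, A-line HET, G-line HOM and G-line HET, filled where the adjusted p is under 0.05. Lama2 was filled in all 4 groups at 0.51 to 0.59, Lamb3 in all 4 at -2.29 to -1.35, and Lama5 in G-line HOM alone at -1.30.

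Receptors and partners of laminins were described from lists. Beside their counts, 26.4% of all genes were called against WT in G-line HOM, 7.96% in A-line HET and 7.52% in G-line HET. The share for A-line HOM is given above. With the shared libraries read as A-line HOM, 22 of 27 calls against WT among the partner genes the rule took ended (adjusted p = 0.0521 to 0.986), and those of Col4a3, Col4a4, Col4a5, Sgca and Sgcd in G-line HOM held. Of 7 laminin-binding integrin subunits, 0 were called by edgeR in G-line HOM against WT, 0 had an unadjusted p under 0.05, DESeq2 called 0, and the median log2 fold change was 0.00. In A-line HOM 1 was higher, in A-line HET 1 was higher and 1 lower, and in G-line HET 1 was higher. Itga7, the integrin alpha subunit with which muscle cells bind laminin, had 259 CPM in A-line HOM, 214, 233 and 222 for A-line HET, 193, 195 and 196 in G-line HOM, 257, 226 and 234 in G-line HET, against 159, 181 and 185 in WT. It rose in A-line HOM by 0.56 ± 0.12 (adjusted p = 0.0135), in A-line HET by 0.35 (adjusted p = 0.0208) and in G-line HET by 0.45 ± 0.09 (adjusted p = 0.00543), but had 0.15 in G-line HOM (adjusted p = 0.206). G-line HOM was lower in Itga7 than G-line HET, at -0.30 (adjusted p = 0.0317). Itgb1, its beta partner, fell in A-line HET by 0.35 (adjusted p = 0.0266). The last of these calls ended without A-line HET replicate 2 or 3 or any WT library (adjusted p = 0.0589 to 0.120), that of Itga7 in A-line HET without A-line HET replicate 2 or 3 or WT replicate 1 (0.0660 to 0.109), and that between the G-line groups without G-line HOM replicate 1 or 2 or any G-line HET library (0.0512 to 0.127). Itga6 had -0.19 (adjusted p = 0.354), Itga2 0.30 (adjusted p = 0.476) and Itgb4 0.49 (adjusted p = 0.489) in G-line HOM against WT, and Bcam, the Lutheran receptor for Lama5-containing laminin, had 0.31 (adjusted p = 0.200), which passed without G-line HOM replicate 3 (adjusted p = 0.00855).

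Of 13 genes of the dystroglycan complex, which ties laminin to the cytoskeleton, 4 were higher and 2 lower in G-line HOM than in WT, with a median of 0.13, beside 13.1% of all genes higher and 13.3% lower. Dmd, dystrophin, had 1028 CPM in A-line HOM, 735, 916 and 1089 for A-line HET, 1080, 1146 and 1194 in G-line HOM, 859, 834 and 901 in G-line HET, against 717, 674 and 670 in WT. It rose in G-line HOM by 0.73 ± 0.12 (adjusted p = 0.000499). The sarcoglycan gene Sgce rose by 0.62 (adjusted p = 0.00212), and its relatives Sgca and Sgcd fell by 0.84 (adjusted p = 0.000126) and by 0.53 (adjusted p = 0.00118). Dag1, which encodes dystroglycan itself, had 0.15 (adjusted p = 0.228). In A-line HOM the list had 0 higher and 1 lower, A-line HET had 1 higher and 1 lower, and G-line HET had 2 higher and 0 lower.

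The enzymes that build dystroglycan's laminin-binding sugar chain were listed under 15 symbols, of which 12 were tested. In G-line HOM 1 was higher and 2 lower than in WT, with a median of -0.15, against the same shares of all genes. Pomt1, which adds the first mannose, had 6.63 CPM in A-line HOM, 9.69, 9.80 and 8.72 for A-line HET, 7.41, 7.35 and 6.67 in G-line HOM, 10.2, 10.9 and 11.8 in G-line HET, against 12.6, 12.6 and 13.3 in WT. All mutant libraries lay below all WT libraries. Pomt1 fell by 0.95 in A-line HOM (adjusted p = 0.00764), by 0.45 in A-line HET (adjusted p = 0.0284) and by 0.84 in G-line HOM (adjusted p = 0.000140). The A-line HET call ended without A-line HET replicate 2 or 3 or any WT library (adjusted p = 0.0562 to 0.124). B3galnt2, a sugar transferase, rose by 0.31 in G-line HOM (adjusted p = 0.0226), a call lost in 8 of 25 alternative analyses, among them those without G-line HOM replicate 2 or 3 or any WT library (0.0556 to 0.0814). B4gat1 had -0.30 (adjusted p = 0.0651), which passed without A-line HET replicate 1 (adjusted p = 0.0379).

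Of 15 genes of the basement membrane network, 5 were higher and 0 lower in G-line HOM than in WT, with a median of 0.63, beside 13.1% of all genes higher, 26.4% called either way and a median of 0.01. The 5 were Col4a3, Col4a4, Col4a5 and Col15a1, which encode collagens, and Smoc2, a calcium-binding matrix protein. Col4a3 had 27.1 CPM in A-line HOM, 36.4, 33.9 and 24.7 for A-line HET, 65.6, 73.7 and 44.4 in G-line HOM, 63.5, 34.3 and 35.3 in G-line HET, against 11.2, 19.6 and 11.2 in WT. Every mutant library lay above the WT libraries. It rose by 2.13 ± 0.33 in G-line HOM (adjusted p = 0.00119) and by 1.66 in G-line HET (adjusted p = 0.0148), with 1.17 in A-line HET (adjusted p = 0.0598). The G-line HET call ended without WT replicate 1 (adjusted p = 0.0684) or 3 (adjusted p = 0.0650).

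Col4a4, whose protein assembles with that of Col4a3, rose by 1.43 ± 0.21 in G-line HOM (adjusted p = 0.000514), by 1.16 in G-line HET (adjusted p = 0.00690) and by 0.93 in A-line HET (adjusted p = 0.0203). The last call ended without A-line HET replicate 2 or 3 or WT replicate 1 or 3 (adjusted p = 0.0697 to 0.0891). Col4a5 rose by 0.84 in G-line HOM (adjusted p = 0.000402). Smoc2 rose by 0.70 in G-line HOM (adjusted p = 0.000717), by 0.66 in G-line HET (adjusted p = 0.00429) and by 0.61 in A-line HET (adjusted p = 0.00696). Nid1, a nidogen that binds the laminin gamma chain, rose in G-line HET by 0.58 ± 0.11 (adjusted p = 0.00489) and was lower in G-line HOM than in G-line HET, at -0.50 (adjusted p = 0.00919). Col4a1 had 0.65 (adjusted p = 0.0920), Nid2 0.25 (adjusted p = 0.166), Hspg2, perlecan, 0.18 (adjusted p = 0.554), and Agrn, agrin, -0.04 (adjusted p = 0.881) in G-line HOM against WT. Col4a1 passed without G-line HOM replicate 3 (adjusted p = 0.00642) and Nid2 without WT replicate 2 (adjusted p = 0.0460). Of the 15 network genes, 3 were higher in A-line HET and 5 in G-line HET, beside 3.99% and 3.97% of all genes higher, and edgeR called 0 in A-line HOM, where 3 had an unadjusted p under 0.05 and DESeq2 called 0.

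**Figure D4:**
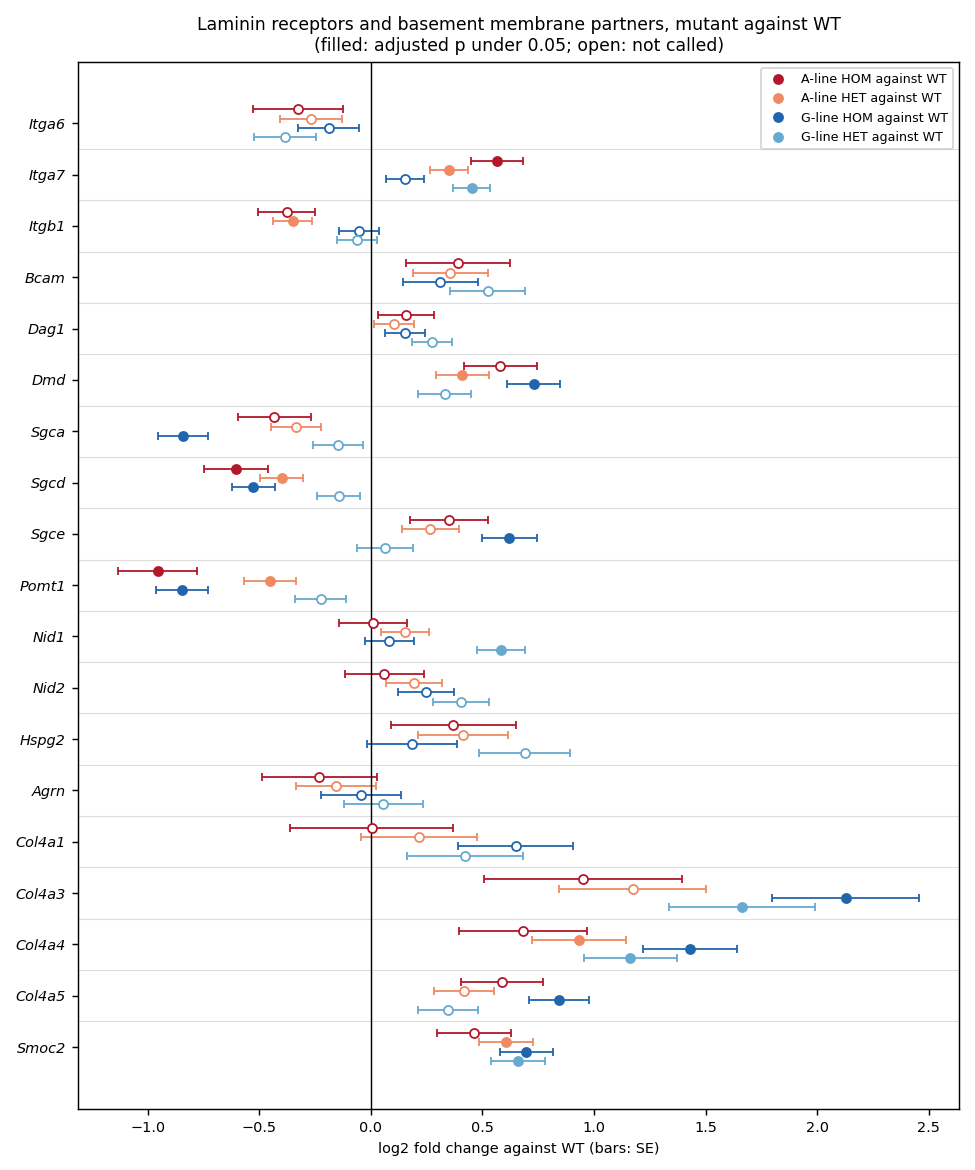
Log2 fold change against WT (horizontal axis, bars of 1 SE) of 19 laminin receptors and basement membrane partners in the 4 mutant groups, filled where the adjusted p is under 0.05. For G-line HOM, Col4a3 and Col4a4 lay farthest to the right, at 2.13 and 1.43, and Sgca and Pomt1 farthest to the left, at -0.84 in both.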

How the data were processed

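Per the labels' protocols, total RNA of left ventricle was extracted with TRIzol, DNase-treated and made into Illumina TruSeq total RNA Gold libraries. Per the submitters' processing notes, bcl2fastq 2.20.0.422, Trimmomatic 0.39 and STAR 2.7.4a were used with mm39. The authors deposited 3 tables of raw counts by gene symbol. The counting program, the annotation and the strand setting are not stated in these notes. Whether reads of overlapping genes on opposite strands were told apart is therefore not known. All values are whole numbers, and 0 columns lacked a sample.

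Groups came from sample titles. A-line HOM replicates 2 and 3 equalled WT replicates 2 and 3 and were used once, as WT. Genes with at least 0.422 CPM in 3 libraries and 15 counts in all were kept. CPM were computed from the counts with TMM factors. A model with a mean per group over 13 libraries (8 residual degrees of freedom) was fitted with edgeR 4.0.16 (limma 3.58.1, R 4.3.3). Adjusted p-values are from its two-sided quasi-likelihood F test with Benjamini-Hochberg adjustment over 17588 genes, and a call is an adjusted p under 0.05. Errors of log2 fold changes are SE, and group means are given ± SD. The SE was derived from the test, as the absolute log2 fold change divided by the square root of F. The procedure was tested on simulated counts, with the same spread for every gene and for G-line HOM against WT alone. The comparisons with the single A-line HOM library and the difference between lines were not tested in this way.

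The members and lists were chosen with earlier results of these data known, among them that Lama5 differs by line and gene dose. All 9 members are named. Of the partner lists, up to 4 genes with the smallest adjusted p in G-line HOM against WT are named, plus Itga7, Itgb1, Dag1, Bcam, Nid1, Nid2, Hspg2, Agrn and Col4a1. Col15a1 was added because its list had 5 called genes. Some partner genes under this rule are not reported here. Levels per length used exons of GENCODE M21 on GRCm38, a different build from that of the counts, and promoters came from RefSeq on GRCm38.p6. Promoter entries for 5 of the 9 members were used.

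Alternatives were DESeq2 1.42.0, other scaling, filters and library sets, a replicate block, the omission of 58 mitochondrial and structural RNA symbols, leaving out each library, and other treatments of the shared libraries.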

Additional observations from a re-analysis of the deposited data

Results flagged for a closer look

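The difference between the lines in HOM against HET for Lama5, A-line minus G-line, was 1.47 on the log2 scale, with 115 CPM in A-line HOM against 100 CPM on average in A-line HET, and 50.4 CPM in G-line HOM against 122 CPM in G-line HET. This comparison was not planned, and Lama5 was already known to differ by line and gene dose. It stood out because the test of the difference itself passed in edgeR, while the A-line HOM value rests on 1 library. It was lost in 18 of 24 alternative analyses, with adjusted p up to 0.219.

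Lama5 was also higher in A-line HOM than in G-line HOM, by 1.19 on the log2 scale (edgeR, adjusted p = 0.0243). It stood out because it is a direct difference between the lines at the same allele dose. Lama5 was already known to differ by line when it was chosen. The call was lost in 8 of 24 alternative analyses, among them the one without the 3 libraries with atrial transcripts (adjusted p = 0.168).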

How the results depend on the processing

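WT keeps replicate 1 alone when the libraries deposited under both names are read as A-line HOM or left out. The number of chains called moved most with these libraries. With these read as A-line HOM it was 0 for A-line HOM against WT (2 as reported), 0 for A-line HET (2), 1 with G-line HOM (5) and 0 with G-line HET (4). It was 1 in G-line HOM against G-line HET (3) and 2 in A-line HOM against G-line HOM (1). With these left out it was 0 in A-line HOM, A-line HET and G-line HET against WT, and 0 in A-line HOM against G-line HOM and in the difference between lines (1 each). With these in both groups it was 0 in A-line HOM, 0 in A-line HET and 2 in G-line HET against WT, and 2 in each comparison of the lines. DESeq2 called 5 in A-line HET. With only the compared groups, or without the libraries with atrial transcripts, both comparisons of the lines had 0, and the difference between lines also had 0 with RLE size factors, with a 1 CPM filter, without mitochondrial and structural RNA and without the 2 libraries in which Arntl, a clock gene, reached 20 CPM. Leaving out each library in turn gave 1 to 3 calls for A-line HOM, 2 to 3 for A-line HET, 4 to 5 for G-line HOM and 2 to 4 for G-line HET against WT, 1 to 4 for G-line HOM against G-line HET, 0 in A-line HOM against A-line HET and in A-line HET against G-line HET, and 0 to 1 in each comparison of the lines. The cause was not tested.

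Replicate numbers did not pair the samples: deviations of same-numbered libraries correlated at -0.266 to 0.149, with 2 of 18 pairs over 0.1, and those of differently numbered libraries at -0.27 to 0.43. With the replicate number as a block, 1 chain was called in A-line HOM against WT and 0 in both comparisons of the lines.

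Reversed log2 values in G-line HOM against WT were those of Lama4 (-0.0367 with the shared libraries as A-line HOM, -0.0410 with these left out, -0.00865 to 0.0595 on leaving out each library), Lamb2 (0.149, 0.145 and -0.146 to 0.0509), Agrn (0.0724, 0.0687 and -0.224 to 0.139) and Itgb4 (-0.200 without the libraries high in Arntl and -0.200 to 0.907 on leaving out each library). Lama5 in G-line HET against WT ranged from -0.0634 to 0.0290 on leaving out each library, and Lamb3 in A-line HOM against WT reversed to 0.12 with the shared libraries as A-line HOM. Over all genes, calls were 4640 in G-line HOM against WT (1151 to 4890 over the alternatives), 823 (0 to 1440) in A-line HOM, 1322 (5 to 2200) in G-line HET and 1400 (0 to 2038) in A-line HET. They were 2575 (1168 to 3116) in G-line HOM against G-line HET, 4 (0 to 25) in A-line HOM against A-line HET, 5 (0 to 607) in A-line HET against G-line HET, 7 (0 to 2285) in A-line HOM against G-line HOM and 3 (0 to 1336) for the difference between lines.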

Other observations

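Genes whose log2 CPM followed a laminin chain most closely over the 13 libraries, among 9875 genes with a mean of at least 5 CPM, were listed as a description. For Lama5 these were Wnk2 (Pearson r = 0.953), Rxra (0.949) and Celsr1 (0.949). For Lama2 they were Casq1 (0.963), Bicd1 (0.959) and Uhmk1 (0.954). For Lama4, which passed no test, the closest were Upf3b (0.816), Plekhh2 (0.816) and Exd2 (0.813). Among the chains themselves, Lama2 and Lamc1 went together (r = 0.854), and Lama2 and Lamb3 ran opposite (r = -0.792). The points share the group differences described above, so these values describe the same libraries and add no test.

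Other cell type lists differed in level between mutant and WT hearts. Pericyte markers, 6 genes, summed to 1129 CPM in A-line HOM, 1069 to 1323 in A-line HET, 900 to 1112 in G-line HOM, 1165 to 1373 in G-line HET and 1474 to 1684 in WT, and every mutant library lay below every WT library. Of these genes 1 was higher and 3 lower in G-line HOM than in WT, beside 13.1% of all genes higher and 13.3% lower. They did not move alike. In mean CPM of G-line HOM against WT, Abcc9 had 289 against 690, Rgs5 511 against 721 and Kcnj8 27.8 against 41.6. Notch3 had 31.04 against 31.95, Pdgfrb 105 against 94.3 and Cspg4 46.7 against 30.1. Of 7 fibroblast markers, 3 were higher in G-line HOM than in WT where DESeq2 called 5, beside 13.1% of all genes called higher by edgeR. Schwann cell markers, a cell type known to make Lama2, summed to 21.9 to 45.4 CPM over all libraries.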
